A study of Homo sapiens with 6 samples.

Results

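The mRNA levels of PEO4 cells carrying the SHMT1 shRNA that the labels call F12 were compared with those of PEO4 cells carrying a nonspecific (NS) shRNA, which the labels also call non-silencing. PEO4 is an established line of high-grade serous (HGS) ovarian cancer. Of the 6 Illumina BeadChip arrays of the series, 2 held RNA of F12 cells and 2 held RNA of NS cells. These 4 arrays were chosen by sample title. The remaining 2 arrays, of cells with a second SHMT1 shRNA, did not enter the fold changes. They served the estimate of the spread, the background cutoff, the probe filter and the choice of the brightest probe. Both groups received their shRNA from a lentivirus, were selected with puromycin and were grown in RPMI medium with serum. All F12 cells carried the same hairpin, so an effect of lower SHMT1 and any other effect of that hairpin cannot be told apart. Nothing in the labels ties the 2 samples within a group to separate cultures. Each p-value then reflects only how far these samples spread, and that spread may be technical.

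A short hairpin RNA is cut in the cell into a small RNA that guides the breakdown of a matching mRNA. SHMT1 encodes the cytosolic serine hydroxymethyltransferase, which passes a carbon unit of serine to tetrahydrofolate and releases glycine. The loaded folate serves the synthesis of thymidylate and purines, and SHMT2 encodes the mitochondrial form of the enzyme. Ovarian cancer cells can secrete IL-6 and the chemokine IL-8, the product of CXCL8, and both genes are switched on through the transcription factors NF-kB and AP-1. The comparison asks which mRNAs are present at another level in cells with the SHMT1 shRNA.

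SHMT1 itself was lower with F12 at its brightest probe but did not pass the test. Its normalized intensity was 434 and 442 on the F12 arrays, against 542 and 544 on the NS arrays. The F12 arrays were thus the lower pair, with a mean at 80.6% of the NS mean. On the log2 scale F12 over NS was -0.31, with a standard error of 0.0813 and limma's adjusted p at 0.2135. The other 2 tested SHMT1 probes were closer to the array's background. They gave 119 and 117 on the F12 arrays against 116 and 126 on the NS arrays, and 101.8 and 99.8 on the F12 arrays against 106 and 101 on the NS arrays, and neither passed (adjusted p = 0.884 and 0.908). SHMT2 had 1689 and 1826 on the F12 arrays and 1832 and 1598 on the NS arrays, so its groups overlapped (log2 fold change 0.04, adjusted p = 0.914).

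Markers of the line were present in both groups. Of 16 markers of HGS and Mullerian epithelium, 15 exceeded the background cutoff of 91.7 on each of the 4 arrays, among them PAX8, WT1, EPCAM and MSLN, and SOX17 did not exceed it on any. Their summed intensity was 28130 to 28385 on the F12 arrays and 26717 to 28293 on the NS arrays. Of 21 leukocyte markers 12 exceeded the cutoff on no array, among them PTPRC, CD3D, CD3E and LYZ, and 4 exceeded it on all 4 arrays, namely CD14, CD68, CD8A and ITGAM. Of these, CD8A at 98.4 to 104 and ITGAM at 94.2 to 99.4 lay just above it. Of 15 fibroblast markers THY1 and FBLN1 exceeded it on all 4 arrays, with THY1 at 2151 and 2084 on the F12 arrays against 2233 and 2043 on the NS arrays. The fibroblast sum was 3638 to 3740 on the F12 arrays and 3620 to 3815 on the NS arrays. Replicate arrays correlated across tested probes with r = 0.9973 for F12 and 0.9961 for NS, and F12 arrays correlated with NS arrays at 0.9926 to 0.9953. The median difference between replicates was 0.0638 on the log2 scale for F12 and 0.0723 for NS. The deposited intensities include the array's background, so that fold changes of dim genes are understated.

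Among 12809 genes tested, 45 were higher with F12 (0.351% of those tested) and 72 were lower (0.562%), or 117 in all (0.913%). The median log2 fold change of all genes was 0.00. The changes were small. The largest rise was 2.42-fold and the largest fall 2.26-fold, and only 2 genes rose and 2 fell by at least 2-fold, while 15 rose and 41 fell by at least 1.5-fold at their brightest probe. The genes that fell were brighter than those that rose, with a median NS intensity of 407 for the lower genes, 235 for the higher genes and 181 for all genes. With genes split by NS intensity into 4 groups of like size, 11 rose and 33 fell in the brightest group, and 4 rose and 0 fell in the dimmest. The dimmest group spanned 81.1 to 106 on the NS arrays, around the background cutoff of 91.7. Genes there had little room to fall below NS, so no conclusion is drawn from this split or from the medians. For 74 of the called genes a single probe was tested. Of the 43 with several probes, 40 had the same sign at each of them, and 10 passed at more than 1. MDK, MRPL42 and MYLK had probes of both signs. Dimmer probes that did not pass are not all given below. The call of 8 genes rested on a dimmer probe alone, namely those of MAL and IFI6, which fell, and of CXXC5, PKM, MAP7D1, EVA1A, TFAP2C and MYL9, which rose. All 117 called genes had non-overlapping groups at the brightest probe, which also held for 24% of all tested genes with F12 above NS and for 22.9% with F12 below.

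**Figure D1:**
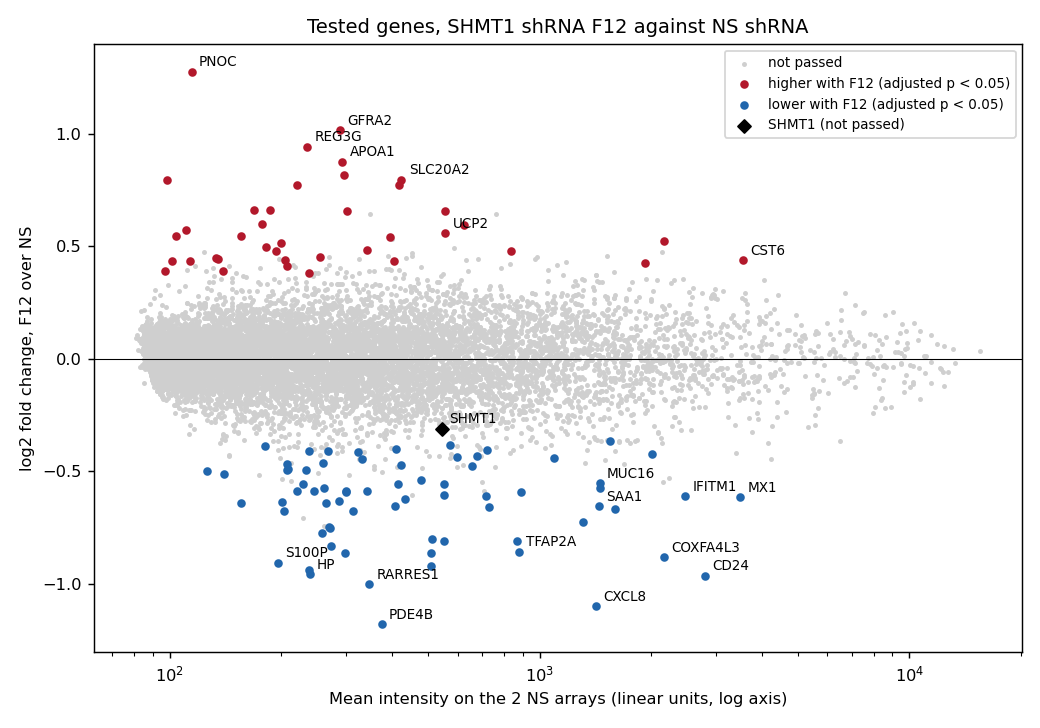
Each point is a tested gene at its brightest probe, with the mean intensity of the 2 NS arrays on the x axis (linear units, log axis) and the log2 fold change, F12 over NS, on the y axis. Red points passed higher and blue points lower at an adjusted p of 0.05, PNOC lies highest at 1.27 and PDE4B lowest at -1.18, and SHMT1 (black) did not pass.

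These counts rest on each of the 4 arrays compared. Without NS replicate 1 the fit called 4 genes higher and 8 lower, without NS replicate 2 it called 0 and 0, without F12 replicate 1 it called 0 and 0, and without F12 replicate 2 it called 1 and 0. In these fits the group with the lost array held a single one, whose spread was taken from the other groups. Before adjustment, genes with a limma p under 0.05 numbered 944 higher and 800 lower in the fit lacking NS replicate 2, 523 and 511 in that lacking F12 replicate 1, and 737 and 613 in that lacking F12 replicate 2. No gene called at its brightest probe changed direction in them. This outcome was fixed in advance, since leaving out 1 array cannot change the direction where the groups do not overlap.

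Among genes of inflammatory signalling CXCL8 was lower with F12. It had the second largest fall of all genes. Its intensity was 648 and 681 on the F12 arrays, against 1433 and 1411 on the NS arrays. The groups lay 2.14-fold apart, at -1.10 on the log2 scale (limma standard error 0.0778, adjusted p = 0.00379), and the dimmer CXCL8 probe fell by 1.13 (adjusted p = 0.012). IL6 had 148 and 148 on the F12 arrays, against 199.6 and 192 on the NS arrays. Both F12 arrays again lay below both NS arrays, but IL6 missed the threshold (log2 fold change -0.40, standard error 0.0638, adjusted p = 0.0508). IL6 passed when dim probes were not filtered out (adjusted p = 0.0335), with an intensity trend and robust estimation together (adjusted p = 0.0233) and with only the F12 and NS arrays fitted (adjusted p = 0.0228). It did not pass with the filter on all 6 arrays (adjusted p = 0.0622), after normexp (log2 fold change -0.63, adjusted p = 0.0542), with a replicate block (adjusted p = 0.107) or when any 1 of the 4 arrays compared was left out, where the adjusted p lay between 0.2155 and 0.425. Of 25 tested genes of inflammatory cytokines and chemokines, CXCL8 was the single one that fell and 0 rose. In 17 of them (68%, beside 22.9% of all genes) both F12 arrays were below both NS arrays and in 1 (4%, beside 24%) above. The median log2 fold change was -0.12, beside 0.00 over all genes. Members that did not pass include the chemokine CCL5 at -0.35 (adjusted p = 0.2996), the death ligand TNFSF10 at -0.27 (adjusted p = 0.243) and the chemokine CCL20 at -0.20 (adjusted p = 0.293). In bulk RNA such as this, fewer cells that express a gene and less RNA per cell cannot be told apart.

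The RefSeq promoter of CXCL8 (build GRCh38.p14, chr4:73740442-73740521, plus strand) is shown because it carries the letters of an NF-kB site, in capitals.
CXCL8 promoter: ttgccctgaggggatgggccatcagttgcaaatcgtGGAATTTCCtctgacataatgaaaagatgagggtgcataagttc
The letters searched were GGNNNTTCC on both strands of the 300 bases from 250 before to 50 after each RefSeq start. They occurred in 20.1% of all 27305 promoters, in 23.1% of those of tested genes, in 11 of 49 promoters of lower genes (22.4%) and in 5 of 29 promoters of higher genes (17.2%). The AP-1 letters TGANTCA, of which CXCL8 also held 1 match, occurred in 7.76% of all promoters, in 4.58% of those of tested genes, in 2 of 49 of lower genes (4.08%) and in 0 of 29 of higher genes. A match is a description of letters and not a measured site.

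Of the NF-kB genes other than cytokines IER3 and SOD2 fell. IER3, an early response gene that limits cell death, had 281 and 258 on the F12 arrays against 512 and 505 on the NS arrays, and SOD2, the mitochondrial superoxide dismutase, had 539 and 459 against 880 and 861. Neither gene's groups overlapped, and the log2 fold changes were -0.92 for IER3 (standard error 0.0968, adjusted p = 0.0122) and -0.81 for SOD2 (standard error 0.0872, adjusted p = 0.0137). A dimmer SOD2 probe fell by 0.63 (adjusted p = 0.0387). Of 26 tested NF-kB subunits, inhibitors and targets these 2 fell and 0 rose, and the median was -0.06. On both arrays 10 lay below NS (38.5%, beside 22.9% of all genes) and 4 above (15.4%, beside 24%). The inhibitor NFKBIA was at -0.38 (adjusted p = 0.0848), the prostaglandin synthase PTGS2 at -0.71 (adjusted p = 0.115), and the subunit NFKB1 at 0.28 (adjusted p = 0.1996). PTGES, which acts after PTGS2 in the synthesis of prostaglandin E2, fell by 0.40 (adjusted p = 0.0478). Of 18 tested genes of the IL-6 receptor and STAT3 pathway none passed in limma, and before adjustment 0 were higher and 2 lower with p under 0.05. Over all 12809 tested genes 889 were higher and 835 lower before adjustment at the brightest probe. IL24, another secreted cytokine, fell by 0.77, with 146 and 156 on the F12 arrays against 256 and 259 on the NS arrays (adjusted p = 0.0137). The dimmer IL24 probe, at -0.12, did not pass (adjusted p = 0.4675). CASP1, the protease that activates interleukins of the IL-1 family, fell by 0.49 (adjusted p = 0.0376). Its dimmer probe, at -0.45, did not pass (adjusted p = 0.105). At their brightest probes the calls of CXCL8, IER3 and SOD2 were all lost when any 1 of the 4 arrays compared was left out, with adjusted p-values from 0.0558 to 0.188.

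In the list of secreted acute-phase and antimicrobial proteins 5 genes fell. HP, which encodes the haemoglobin-binding protein haptoglobin, had 122 and 124 on the F12 arrays against 231 and 247 on the NS arrays, and fell by 0.96 (standard error 0.0595, adjusted p = 0.00263). RARRES1 is counted in the list, although it is a membrane protein induced by retinoids. It had 170.0 and 176 on the F12 arrays against 361 and 333 on the NS arrays. It fell by 1.00 (adjusted p = 0.00263), and by 0.77 at its dimmer probe (adjusted p = 0.0137). The groups of both genes stood well apart. SAA1, a serum amyloid A protein, had 932 and 912 on the F12 arrays against 1420 and 1482 on the NS arrays. It fell by 0.65 (adjusted p = 0.00919), and by 0.82 at a second probe (adjusted p = 0.00876). A further, dim SAA1 probe was at -0.24 and did not pass (adjusted p = 0.288). S100A9, a subunit of the antimicrobial complex calprotectin, had 160.1 and 167 on the F12 arrays against 314 and 282 on the NS arrays and fell by 0.86 (adjusted p = 0.0142). The epithelial defensin DEFB1 had 158 and 148 on the F12 arrays against 260.0 and 286 on the NS arrays and fell by 0.83 (adjusted p = 0.00863). In none of these genes did the groups overlap.

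Of 25 tested members of that list 5 fell, 0 rose and 20 did not pass, with a median of -0.18. On both arrays 64% lay below NS (beside 22.9% of all genes) and 24% above (beside 24%). The antibacterial lectin REG3G, which is not in the list, rose. Without NS replicate 1 the median was -0.27, and without NS replicate 2 it was -0.14. With the filter on all 6 arrays it was -0.17 with 5 of 20 members lower, and after normexp it was -0.33 with 9 lower. With only the F12 and NS arrays 8 were lower, and with the intensity trend and robust estimation 10. Members not past the threshold ran from the complement factor CFB at -0.41 (adjusted p = 0.153) and the protease inhibitor SLPI at -0.32 (adjusted p = 0.244) to the iron carrier protein LCN2 at -0.18 (adjusted p = 0.518) and the chemoattractant RARRES2 at 0.28 (adjusted p = 0.284), named after their values were seen. CFI, the protease that inactivates complement, fell by 0.44 (adjusted p = 0.0335). So did CD14, the receptor partner for bacterial lipopolysaccharide, which had 155 and 139 on the F12 arrays against 232 and 209 on the NS arrays. Its log2 fold change was -0.59 (adjusted p = 0.0356), and at its dimmer probe -0.19 (adjusted p = 0.252). CD14 is also a leukocyte marker, and the sum of the 21 leukocyte markers was 2125 to 2130 on the F12 arrays and 2188 to 2299 on the NS arrays. HP and SAA1 have near-identical relatives, and how much their probes detect of these was not tested. The calls of the 5 genes were lost without NS replicate 2, F12 replicate 1 or F12 replicate 2, and HP and RARRES1 alone kept theirs without NS replicate 1 (adjusted p from 0.0449 to 0.214 over these fits).

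**Figure D2:**
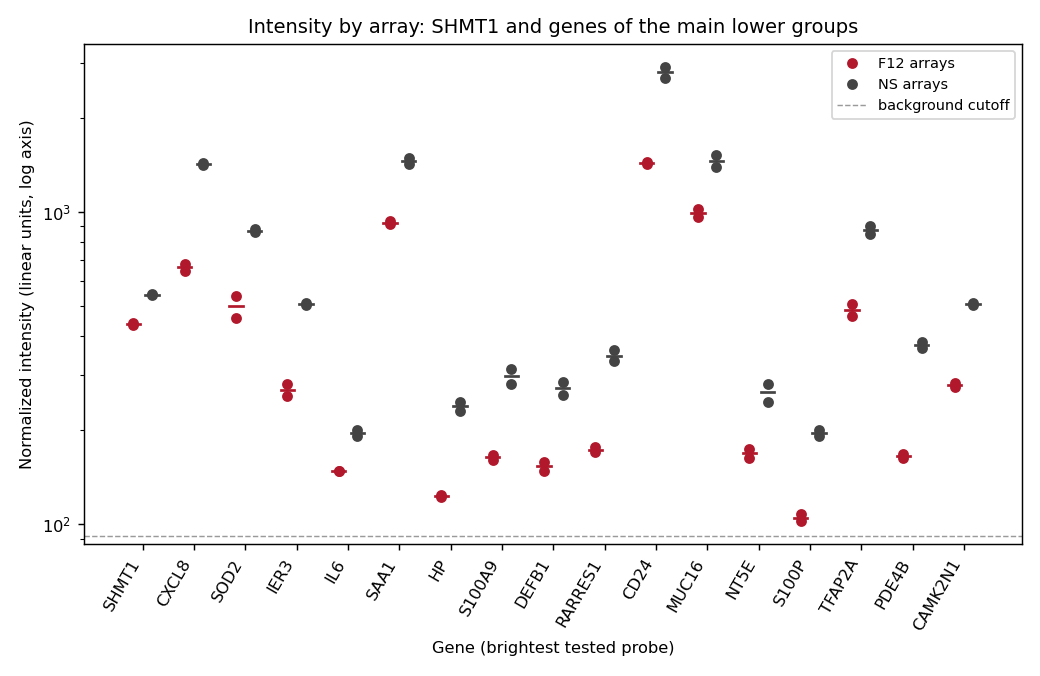
Normalized intensity (linear units, log axis) of SHMT1 and of genes in the main groups of falling genes, at the brightest probe, for the 2 F12 arrays (red) and the 2 NS arrays (grey), with bars at the mean and a dashed line at the background cutoff of 91.7. In each gene shown both F12 arrays lay below both NS arrays, and SHMT1 and IL6 did not pass the test.

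Of 51 tested genes that interferons induce, 7 fell and 47 had a negative log2 fold change. Over all 12809 tested genes these numbers were 72 and 6311. Interferons act through receptors on the cell surface, and many of the genes they induce carry a promoter element called ISRE. MX1, a GTPase that blocks virus replication, had 2224 and 2324 on the F12 arrays, against 3562 and 3402 on the NS arrays. OAS2, which makes the messenger that switches on RNase L, had 181 and 189 on the F12 arrays against 291 and 281 on the NS arrays. Its neighbour and relative OAS3 had 475 and 463 on the F12 arrays against 678 and 753 on the NS arrays. The F12 arrays were the lower in each of the 3 genes, by 0.61 for MX1 (standard error 0.0583, adjusted p = 0.00876), 0.63 for OAS2 (standard error 0.0581, adjusted p = 0.00851) and 0.61 for OAS3 (standard error 0.0828, adjusted p = 0.0317). IFI44L, an interferon-induced gene of less well known function, had 288 and 297 on the F12 arrays against 462 and 564 on the NS arrays and fell by 0.80 (adjusted p = 0.0196). BST2, or tetherin, which holds budding viruses at the cell surface, had 171 and 151 on the F12 arrays against 287 and 254 on the NS arrays and fell by 0.75 (adjusted p = 0.0241). IFITM1, a membrane protein that hinders virus entry, had 1679 and 1563 on the F12 arrays against 2477 and 2471 on the NS arrays and fell by 0.61 (adjusted p = 0.0326). No groups overlapped in these genes either. Dimmer probes of OAS2, at -0.12, and of IFI44L, at -0.11, did not pass (adjusted p = 0.501 and 0.593). IFI6 fell at its dimmer probe only, with 828 and 837 on the F12 arrays against 1400.5 and 1282 on the NS arrays (log2 fold change -0.69, adjusted p = 0.0467). At its brighter probe it was at -0.55 (adjusted p = 0.147).

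Of 51 tested interferon-stimulated genes, 7 fell, 0 rose and 44 did not pass. Both F12 arrays were below both NS arrays in 38 of them (74.5%, beside 22.9% of all genes) and above in 3 (5.88%, beside 24%), and the median was -0.22. At an unadjusted p under 0.05 there were 26 lower and 1 higher at the brightest probe. Over all 12809 tested genes these numbers were 835 lower and 889 higher. The summed intensity of the list was 49638 to 51039 on the F12 arrays and 59108 to 59913 on the NS arrays. Well-known members that did not pass were IFIT1 at -0.47 (adjusted p = 0.0681), the ubiquitin-like protein ISG15 at -0.44 (adjusted p = 0.101), the GTPase GBP2 at -0.39 (adjusted p = 0.0624), OAS1 at -0.34 (adjusted p = 0.412) and IFI27 at -0.15 (adjusted p = 0.415). The RNA editing enzyme ADAR stood on the other side at 0.14 (adjusted p = 0.442). These 6 were named after their values were seen. Of 19 tested genes of MHC class I and peptide processing, many of which interferons also induce, none passed in limma, 1 was higher and 3 were lower at an unadjusted p under 0.05, and B2M was at -0.25 (adjusted p = 0.401).

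**Figure D3:**
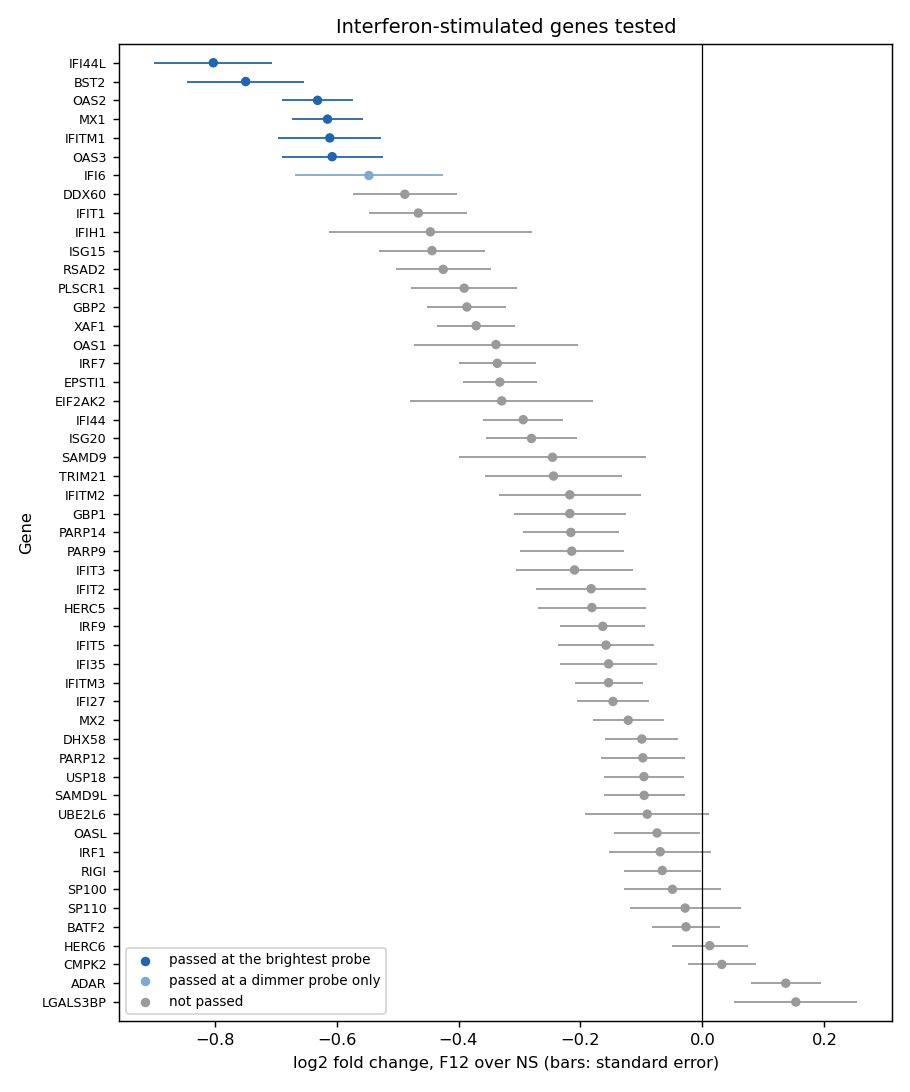
Log2 fold change, F12 over NS, of the 51 tested interferon-stimulated genes at their brightest probe, with bars for the standard error of the limma fit. Blue points passed at the brightest probe, the light blue point (IFI6) at a dimmer probe only and grey points did not pass, and 47 of the 51 lie left of 0.

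The promoters of the falling interferon-stimulated genes are shown because they share the ISRE letters. Each line gives 80 bases of the RefSeq promoter (build GRCh38.p14) on the strand of the gene, with matches in capitals. The letters searched were GAAA, any 2 bases and GAAA again.
MX1, chr21:41420528-41420607, plus strand: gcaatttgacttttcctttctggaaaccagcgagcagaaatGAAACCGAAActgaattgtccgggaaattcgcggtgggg
OAS3, chr12:112938427-112938506, plus strand: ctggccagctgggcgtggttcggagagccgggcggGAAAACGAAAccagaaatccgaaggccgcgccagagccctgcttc
IFI44L, chr1:78620340-78620419, plus strand: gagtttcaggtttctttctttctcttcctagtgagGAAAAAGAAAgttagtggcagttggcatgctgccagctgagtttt
BST2, chr19:17405713-17405792, minus strand: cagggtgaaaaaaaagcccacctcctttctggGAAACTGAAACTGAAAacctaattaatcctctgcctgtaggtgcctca
IFI6, chr1:27672273-27672352, minus strand: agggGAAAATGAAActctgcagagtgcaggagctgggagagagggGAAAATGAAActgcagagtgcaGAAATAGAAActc
IFITM1, chr11:313982-314061, plus strand: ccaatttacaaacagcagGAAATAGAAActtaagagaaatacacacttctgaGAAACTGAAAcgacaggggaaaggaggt
On both strands of the 300 bases around each start, these letters occurred in 6 of the 6 falling interferon-stimulated genes with a promoter in the table, in 20 of 36 that did not pass (55.6%), in 2.84% of the promoters of tested genes and in 996 of all 27305 promoters (3.65%). OAS2 had no promoter among those searched. Of all lower genes 8 of 49 held them (16.3%), but 6 of these 8 are the interferon-stimulated genes above. The others are IL24 and VNN2. Of all higher genes 0 of 29 held them. In BST2 the matches overlap, and IFI6 has 3 of them. OAS3 and IFI44L have 2 matches each, of which 1 lies outside the 80 bases shown. The calls of MX1, OAS2, OAS3, BST2 and IFITM1 were lost without any of the 4 arrays compared, and that of IFI44L was kept without NS replicate 1 alone (adjusted p from 0.0464 to 0.334 over these fits). With only the F12 and NS arrays fitted 17 members were lower. The number was 1 without NS replicate 1 and 0 without NS replicate 2, F12 replicate 1 or F12 replicate 2, while 45 to 47 of the 51 log2 fold changes stayed negative and the median lay between -0.25 and -0.19.

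Of the antigens of the ovarian cancer cell surface CD24, MUC16 and NT5E fell. CD24, a glycoprotein that gives tumour cells a signal against phagocytosis, had 1440 and 1426 on the F12 arrays, against 2679 and 2915 on the NS arrays. It fell by 0.96 (standard error 0.0636, adjusted p = 0.00263), and by 0.58 at a dimmer probe (adjusted p = 0.0122), though near-identical copies of CD24 exist in the genome and their share in the signal was not tested. MUC16, the mucin that carries the serum marker CA-125, had 1018 and 964 on the F12 arrays against 1389 and 1516 on the NS arrays and fell by 0.55 (adjusted p = 0.0198). NT5E, the ectoenzyme CD73 that makes adenosine, had 163 and 175 on the F12 arrays against 282 and 247 on the NS arrays and fell by 0.64 (adjusted p = 0.0241). None of these groups overlapped. Of 19 tested surface antigens and mucins these 3 fell, 0 rose and 16 did not pass, and the median was -0.06. On both arrays 57.9% lay below NS (beside 22.9% of all genes) and 31.6% above (beside 24%). Antigens that did not pass were CD44 at -0.59 (adjusted p = 0.119), the folate receptor FOLR1 at 0.16 (adjusted p = 0.518), BCAM at 0.21 (adjusted p = 0.488) and ALCAM at 0.37 (adjusted p = 0.5597), the last named after its value was seen.

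S100P, a secreted calcium-binding protein, had 102 and 107.5 on the F12 arrays, close to the background, against 192 and 201 on the NS arrays. It fell by 0.91 (standard error 0.0665, adjusted p = 0.00439), and with S100A9 it was 1 of 2 lower genes among 14 tested of the S100 family. MAL, a lipid raft protein of epithelia, fell at its dimmer probe by 0.54, with 2343 and 2218 on the F12 arrays against 3148 and 3474 on the NS arrays (adjusted p = 0.0241). At its brighter probe it was at -0.36 (adjusted p = 0.148). Other epithelial genes did not pass, among them CDH1 at 0.33 (adjusted p = 0.1601) and JUP at 0.34 (adjusted p = 0.0652). Without NS replicate 1 the calls of CD24 and S100P were kept and those of MUC16 and NT5E lost, and without NS replicate 2, F12 replicate 1 or F12 replicate 2 all 4 were lost (adjusted p from 0.0449 to 0.307). After a normexp background correction S100P was at -1.61 and MUC16 no longer passed (adjusted p = 0.0625).

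The 2 AP-2 family factors that passed went in opposite directions. TFAP2A, or AP-2 alpha, had 508 and 463 on the F12 arrays against 851 and 904 on the NS arrays at its brightest probe, and 179 and 207 against 362 and 339 at the next. Both probes fell by 0.86 (standard errors 0.0777 and 0.0839, adjusted p = 0.0085 and 0.00919), and 2 further probes near background did not pass. TFAP2C, or AP-2 gamma, had 248 and 253 on the F12 arrays against 173 and 168 on the NS arrays at its dimmer probe and rose by 0.56 (adjusted p = 0.0144). At its brighter probe TFAP2C was at 0.31 (adjusted p = 0.198). The other 4 tested genes of the AP-2 list did not pass. Among other regulators of transcription PBX3, a homeodomain cofactor of HOX proteins, fell by 0.60 (adjusted p = 0.0085), HES4, a Notch target, fell by 0.40 (adjusted p = 0.0332), and MESP1 fell by 0.45 (adjusted p = 0.0347).

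PDE4B, the phosphodiesterase that breaks down cyclic AMP, had the largest fall of all genes. Its intensity was 163 and 168 on the F12 arrays, against 382 and 366 on the NS arrays. The F12 arrays were thus 2.26-fold lower, at -1.18 on the log2 scale (standard error 0.128, adjusted p = 0.0137), and a dimmer probe fell by 0.52 (adjusted p = 0.0239). CAMK2N1, an inhibitor of the calcium-dependent kinase CaMKII, had 283 and 275 on the F12 arrays against 504 and 510.5 on the NS arrays and fell by 0.86 (adjusted p = 0.00263). Of 30 tested genes of cyclic AMP and calcium signalling these 2 fell and 0 rose. FOS, a subunit of AP-1, had 459 and 464 on the F12 arrays against 697 and 762 on the NS arrays and was the single one of 24 immediate early and AP-1 genes to pass (log2 fold change -0.66, adjusted p = 0.0144). PHLDA1, a target of growth factor signalling, had 1019 and 995 on the F12 arrays against 1580 and 1612 on the NS arrays. It fell by 0.66 (adjusted p = 0.0085), and its dimmer probe was at -0.18 (adjusted p = 0.448). RASD1, a small G protein that dexamethasone induces, went the other way and rose by 0.45 (adjusted p = 0.0347). In these genes the 2 groups lay apart on all 4 arrays. Of TFAP2A, PDE4B, CAMK2N1, PHLDA1, FOS and PBX3, CAMK2N1 alone passed without NS replicate 1, and none did without NS replicate 2, F12 replicate 1 or F12 replicate 2. Over these 4 fits the adjusted p-values ran from 0.0449 to 0.22.

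The genes that rose were led by secreted peptides and a receptor. PNOC, the precursor of the neuropeptide nociceptin, had 292 and 264 on the F12 arrays, against 114 and 116 on the NS arrays. The NS values were near the background. PNOC rose by 1.27 (standard error 0.0657, adjusted p = 0.00263), or by 1.99 after a normexp background correction. GFRA2, the receptor for neurturin of the GDNF family, had 594 and 575 on the F12 arrays against 293 and 286 on the NS arrays and rose by 1.01 (standard error 0.0592, adjusted p = 0.00263). BDNF, a neurotrophin of the same gene list, had 200.4 and 204 on the F12 arrays against 256 and 284 on the NS arrays and did not pass (log2 fold change -0.42, adjusted p = 0.0677). The dimmer BDNF probe was at -0.03 (adjusted p = 0.916). GFRA2 was the single one of 8 tested neurotrophins, GDNF ligands and receptors to pass. REG3G, an antibacterial lectin of the gut, had 466 and 439 on the F12 arrays against 240 and 231 on the NS arrays and rose by 0.94 (adjusted p = 0.00263). Its dimmer probe was at 0.31 (adjusted p = 0.288). APOA1, the main protein of high-density lipoprotein, had 546 and 528 on the F12 arrays against 279 and 307 on the NS arrays and rose by 0.87 (adjusted p = 0.00851). The 4 genes were above NS on both F12 arrays. Their calls were lost without NS replicate 2 or F12 replicate 1, and that of APOA1 also without NS replicate 1, while without F12 replicate 2 PNOC alone passed (adjusted p from 0.0449 to 0.17 over these fits).

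**Figure D4:**
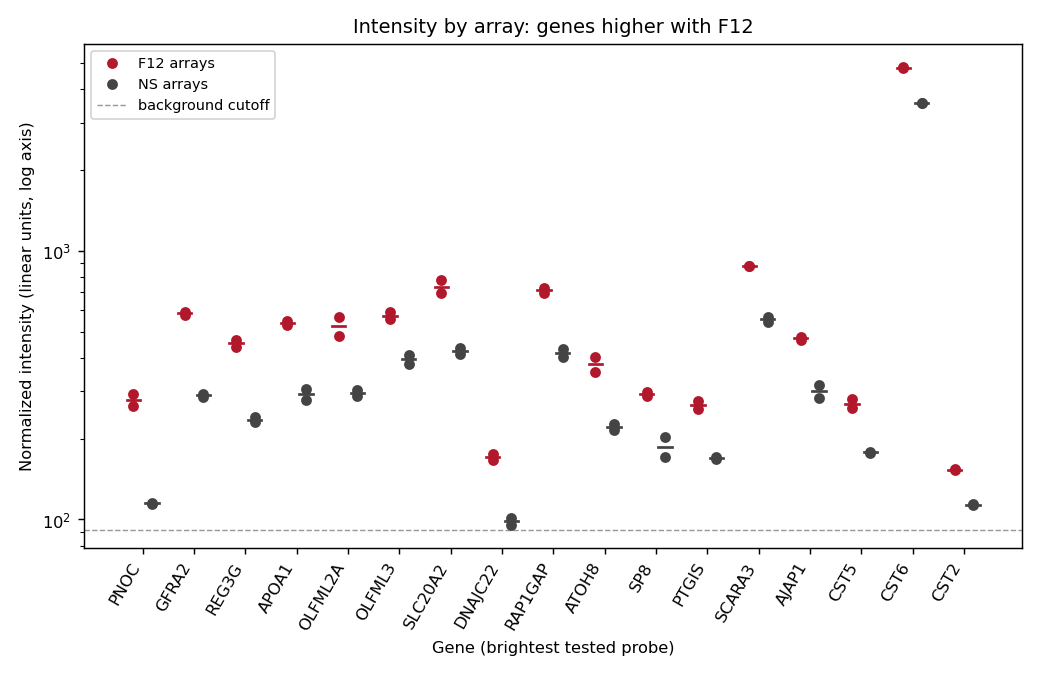
Normalized intensity (linear units, log axis) of genes higher with F12, at the brightest probe, for the 2 F12 arrays (red) and the 2 NS arrays (grey), with bars at the mean and a dashed line at the background cutoff of 91.7. In each gene both F12 arrays lay above both NS arrays, from 2.42-fold for PNOC down to 1.35-fold for CST2.

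Of the cystatins, which inhibit cysteine proteases, CST6, CST5 and CST2 rose, and no list of cystatins was examined. CST6 had 4834 and 4779 on the F12 arrays against 3534 and 3558 on the NS arrays and rose by 0.44 (adjusted p = 0.022). CST5 had 280.0 and 259.5 on the F12 arrays against 177 and 178 on the NS arrays and rose by 0.60 (adjusted p = 0.0159). CST2 had 154 and 153 on the F12 arrays against 114 and 113 on the NS arrays and rose by 0.43 (adjusted p = 0.0209). CST2 and CST5 are neighbours on chromosome 20, and cystatins of this cluster resemble each other closely. Of the proteases and inhibitors around them, SERPINE2, an inhibitor of thrombin and urokinase, fell by 0.81 with 288 and 342 on the F12 arrays against 609 and 495 on the NS arrays (adjusted p = 0.0407). ADAMTS9, a metalloprotease, fell by 0.39 (adjusted p = 0.0392), and PLAT, the tissue plasminogen activator, was at 0.64 and did not pass (adjusted p = 0.212). Of 26 tested genes of the urokinase system, proteases and inhibitors, CST6 rose, SERPINE2 and ADAMTS9 fell, and the median was 0.00. On both arrays 11.5% lay below NS (beside 22.9% of all genes) and 26.9% above (beside 24%).

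Other risers were proteins of the membrane, the matrix and cell signalling. The olfactomedin-like matrix proteins OLFML2A and OLFML3 rose by 0.82 (adjusted p = 0.0144) and 0.54 (adjusted p = 0.0279), with OLFML2A at 565 and 483 on the F12 arrays against 289 and 304.5 on the NS arrays. SLC20A2, a sodium-dependent phosphate transporter, had 775.5 and 695 on the F12 arrays against 433 and 413 on the NS arrays and rose by 0.80 (adjusted p = 0.0142). RAP1GAP, which turns off the small G protein Rap1, had 727 and 699 on the F12 arrays against 431 and 404 on the NS arrays and rose by 0.77 (adjusted p = 0.0085). The transcription factors ATOH8, a basic helix-loop-helix protein, and SP8, a zinc finger protein, rose by 0.77 (adjusted p = 0.00876) and 0.66 (adjusted p = 0.0228). PTGIS, the synthase of prostacyclin, rose by 0.66 with 277 and 257 on the F12 arrays against 170.3 and 168 on the NS arrays (adjusted p = 0.0085). SCARA3, a scavenger receptor, rose by 0.66 with 874 and 877 on the F12 arrays against 545 and 567 on the NS arrays (adjusted p = 0.0144). The dimmer SCARA3 probes, at 0.36 and 0.08, did not pass (adjusted p = 0.0827 and 0.886). The junction protein AJAP1 rose by 0.65 (adjusted p = 0.0122), and by 0.64 at a second probe (adjusted p = 0.022). The intracellular channel protein CLIC5 rose by 0.59 (adjusted p = 0.0144). In each of these genes both F12 arrays exceeded both NS arrays.

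Smaller rises were those of the receptor kinase FGFR3 (0.45, adjusted p = 0.0387) and the ligand WNT11 (0.44, adjusted p = 0.0436). In the extracellular matrix the collagen COL16A1 rose by 0.50 (adjusted p = 0.0287) and the proteoglycan FMOD by 0.44 (adjusted p = 0.0402). Among signalling and cell death genes the phosphatase PTPRR rose by 0.51 (adjusted p = 0.0144), the nucleotide receptor P2RY2 by 0.41 (adjusted p = 0.0491), and BOK, a BCL2 relative, by 0.48 (adjusted p = 0.0387). DNAJC22 had 175 and 166 on the F12 arrays against 101.6 and 95.6 on the NS arrays, near the background, and rose by 0.79 (adjusted p = 0.00527). The RNA-binding proteins HNRNPM and RBM20 rose by 0.52 (adjusted p = 0.0246) and 0.48 (adjusted p = 0.0301). The dimmer HNRNPM probes, at 0.22, 0.43 and 0.10, did not pass (adjusted p = 0.308, 0.223 and 0.631). The probe annotated to POTEF, an actin-like gene, rose by 0.42 (adjusted p = 0.03), and the brightest ACTB probe was at 0.24 (adjusted p = 0.303), so cross-detection of actin mRNA by the POTEF probe was not tested apart. CLEC18B at 0.57 and ZXDA at 0.44 also have near-identical relatives. Of the 16 risers below APOA1 that were followed with an array left out, among them OLFML2A, SLC20A2, RAP1GAP, ATOH8, PTGIS, SCARA3, CST5, CST6 and UCP2, DNAJC22 alone passed without NS replicate 1 and none without NS replicate 2, F12 replicate 1 or F12 replicate 2. Over these 4 fits the adjusted p-values ran from 0.0486 to 0.329.

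Genes of the pathway around SHMT1 did not pass. As a base for the unadjusted counts here, 889 of all 12809 tested genes were higher and 835 lower at their brightest probe. Of 21 tested folate cycle genes 0 were higher and 0 lower in limma, before adjustment 1 was higher and 1 lower with p under 0.05, and the median was -0.01. SHMT1 itself had the lowest log2 fold change of them, and GGH, which trims folate polyglutamates, was at -0.25 (adjusted p = 0.495) and MTHFS, which returns formyl folate to the cycle, at -0.20 (adjusted p = 0.467). Of 17 tested genes of serine and glycine metabolism none passed, with 0 higher and 1 lower at the unadjusted level. PHGDH, the first enzyme of serine synthesis, was at 0.10 (adjusted p = 0.622), and GLDC of the glycine cleavage system was at -0.20 (adjusted p = 0.443). Of 35 genes of purine and pyrimidine synthesis none passed (4 higher and 2 lower unadjusted), with UPP1, uridine phosphorylase, at -0.37 (adjusted p = 0.0508) and the ribonucleotide reductase subunit RRM2 at 0.40 (adjusted p = 0.212). Of 36 genes of amino sugar, nucleotide sugar and sialic acid metabolism none passed (1 higher and 2 lower unadjusted), with the phosphomannomutase PMM1 at -0.26 (adjusted p = 0.275) and the kinase NAGK at 0.19 (adjusted p = 0.2996).

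Elsewhere in metabolism single genes passed. SCD, which puts the double bond into fatty acids, had 247 and 268 on the F12 arrays against 422 and 389 on the NS arrays and fell by 0.65 (adjusted p = 0.0142), the single one of 33 sterol and fatty acid genes to pass. The glucose transporter SLC2A3 had 304 and 306 on the F12 arrays against 409 and 437 on the NS arrays and fell by 0.47 (adjusted p = 0.0269). ADM, the vasodilator peptide adrenomedullin, had 1541 and 1456 on the F12 arrays against 2015 and 2004 on the NS arrays and fell by 0.42 (adjusted p = 0.0376). Both are known targets of hypoxia signalling, and with PKM, which rose at a dimmer probe by 0.55 (adjusted p = 0.0423) and not at its brightest (0.27, adjusted p = 0.2996), they were the 3 that passed of 39 genes of glycolysis and hypoxia. UCP2, a carrier of the mitochondrial inner membrane, had 831 and 804 on the F12 arrays against 538 and 573.5 on the NS arrays and rose by 0.56 (adjusted p = 0.0147). The metallothionein MT1M, one of a family with closely similar sequences, fell by 0.59 (adjusted p = 0.0122). RRAGD, a small G protein that brings amino acid supply to mTORC1, fell by 0.56 (adjusted p = 0.0137). The calls of SCD, SLC2A3, ADM, UCP2 and MT1M were lost without any of the 4 arrays compared (adjusted p from 0.0924 to 0.362), and after a normexp background correction SLC2A3 and ADM did not pass.

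Several falling genes belonged to no list. VNN3P and VNN2, neighbours on chromosome 6 that derive from the vanin family of pantetheine-splitting enzymes, both fell. VNN3P had 118 and 132 on the F12 arrays against 232 and 246 on the NS arrays (log2 fold change -0.94, adjusted p = 0.00804), and VNN2 had 176 and 176 on the F12 arrays against 268 and 256 on the NS arrays (-0.57, adjusted p = 0.0102). Dimmer probes of VNN3P, at -0.37, and of VNN2, at -0.22 and -0.06, did not pass (adjusted p = 0.1099, 0.2467 and 0.777). On chromosome 1 the adjacent LEMD1 and BLACAT1 fell by 0.49 (adjusted p = 0.0144) and 0.41 (adjusted p = 0.0317). COXFA4L3, long known as C15orf48, is related to a subunit of cytochrome c oxidase and is induced in inflammation. It had 1210 and 1149 on the F12 arrays against 2185 and 2160 on the NS arrays and fell by 0.88 (standard error 0.0584, adjusted p = 0.00263). The dimmer COXFA4L3 probes, at -0.40 and -0.10, did not pass. ADIRF, a factor of fat cell differentiation, had 814 and 774 on the F12 arrays against 1298 and 1326 on the NS arrays and fell by 0.73 (adjusted p = 0.0228).

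The RNA-binding protein IGF2BP3, an oncofetal protein, fell by 0.68 with 123 and 130.5 on the F12 arrays against 216 and 191 on the NS arrays (adjusted p = 0.0438). PXDN, a peroxidase that crosslinks collagen IV, fell by 0.68 (adjusted p = 0.0171), and MGAT3, which adds the bisecting sugar to N-glycans, fell by 0.62 (adjusted p = 0.0085). The growth factor MDK fell by 0.59 at its brightest probe (adjusted p = 0.0159). Its other tested probes, near the background, were at -0.09, -0.02 and 0.05 and did not pass. The hormone precursor SST fell by 0.59 (adjusted p = 0.0187) and the ubiquitin ligase subunit FBXO32 by 0.59 (adjusted p = 0.0209). CYP24A1, which inactivates vitamin D, had 88.0 and 90.7 on the F12 arrays, not above the background cutoff, against 128 and 124 on the NS arrays. It was at least 1.37-fold lower with F12, taking the cutoff as the F12 level (adjusted p = 0.0347). The gene of coagulation factor XII, whose symbol is F12 like the hairpin's label but which the hairpin was not made for, fell by 0.47 (adjusted p = 0.0438). Of 13 of the falling genes outside the main groups, among them VNN3P, ADIRF, PXDN and IGF2BP3, COXFA4L3 alone passed without NS replicate 1 and none without NS replicate 2, F12 replicate 1 or F12 replicate 2. Over these 4 fits the adjusted p-values ran from 0.0481 to 0.425.

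Of the 46 gene lists examined, 22 held no member that passed in limma. They include cell cycle and DNA replication (55 tested, 6 higher and 1 lower unadjusted), homologous recombination (24 tested, 1 and 2 unadjusted), p53 targets and apoptosis regulators (31 tested, 3 and 1 unadjusted), ATF4 targets and the unfolded protein response (36 tested, 6 and 3 unadjusted) and cytosolic ribosomal proteins (56 tested, 1 and 2 unadjusted). Over all 12809 tested genes 889 were higher and 835 lower unadjusted at the brightest probe, which is the base for these counts. On both arrays 22.9% of all tested genes lay below NS and 24% above, which is the base for the shares that follow. In respiratory chain subunits 44.6% of 56 genes lay below NS on both arrays and 7.14% above. Their median was -0.06, and UCP2, counted with them, was the single one to pass. Heat shock and chaperone genes leaned the other way. Of 24, 66.7% lay above NS on both arrays and 8.33% below, the median was 0.12, and before adjustment 8 were higher and 0 lower with p under 0.05, with DNAJB6 at 0.44 (adjusted p = 0.115) and HSPB8 at 0.33 (adjusted p = 0.0827). The 12 reference genes, such as ACTB and GAPDH, also lay at a median of 0.14, with 66.7% above NS on both arrays, so the chaperone median was no further from 0 than theirs. In TGF-beta and BMP signalling 52.2% of 23 genes lay above NS on both arrays, and ATOH8 alone passed.

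**Figure D5:**
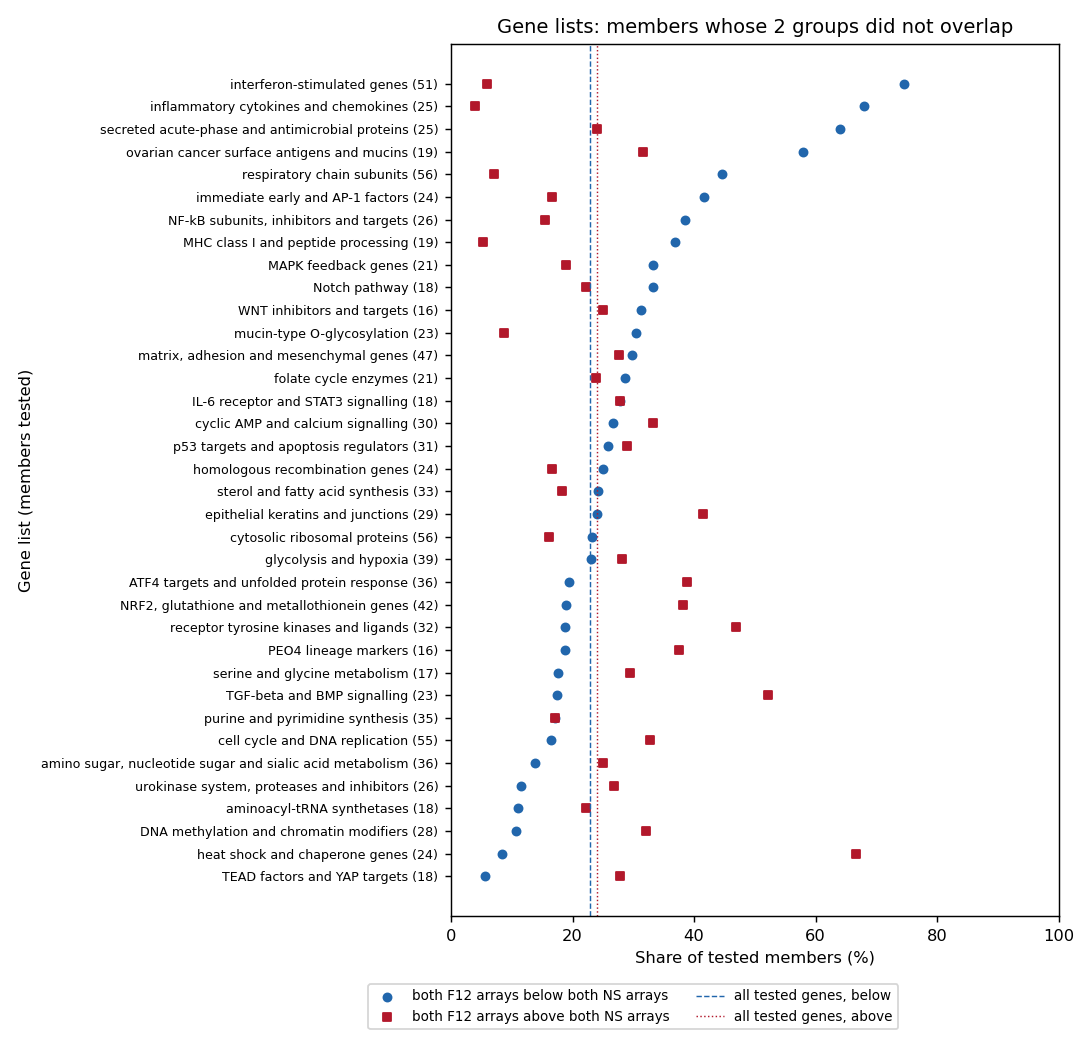
For each larger gene list, with the number of members tested in brackets, the share of members (%) in which both F12 arrays lay below both NS arrays (blue circles) or above them (red squares). The lines mark the same shares over all tested genes, 22.9% below and 24% above, and interferon-stimulated genes lie furthest right for the lower share at 74.5%.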

How the data were processed

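RNA of PEO4 cells was measured on 6 single-colour Illumina HumanHT-12 arrays, 2 each for SHMT1 shRNA F12, NS shRNA and a second SHMT1 shRNA, grouped by sample title. According to the methods, the authors took GenomeStudio output through a log2 transformation and lumi's quantile normalization, and the submitters' processing notes name lumi with no version. The intensities that the authors deposited are nevertheless linear values, between 70.9 and 15895. On background subtraction the sources used here give nothing. The other table, of scanner signals before normalization, has 12 columns that could not be tied to samples by name, so it was not used here.

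The intensities were log2-transformed without further normalization. Probes above 91.7, the 95th percentile of a background estimated from the mode of all values (85.5) and the spread below it, on 2 or more of the 6 arrays entered the test (22843 of 47321 probes, 12809 genes). Differential expression was tested with limma 3.58.1 in R 4.3.3 (lmFit and eBayes, 3 groups with 1 shared spread, 3 residual and 4.28 prior degrees of freedom, two-sided, contrast F12 minus NS), with Benjamini-Hochberg adjustment over all tested probes and a threshold of 0.05 without a fold limit, as in the methods of the study. A gene was counted once if any probe passed, and its value is that of its brightest tested probe. Probes were named from the platform annotation with symbols updated to RefSeq. Of the tested probes 17169 had 1 symbol, 4 had several and 5670 had none, and of the unnamed ones 4 were higher and 13 lower. The fit was checked on simulated arrays. The number of arrays limits the precision.

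Named by rule were SHMT1, SHMT2, IL6, CXCL8, BDNF and TFAP2A, and up to 5 members of each of 46 gene lists with the lowest adjusted p. So were the 25 largest rises and 25 largest falls among genes passing at the brightest probe with groups that did not overlap. For these rises and falls non-overlap was a condition of the choice and is no separate support. Other genes that passed, and those so marked, were picked once their values were known. The genes, lists and rules were chosen with earlier results of these data known. Alternatives were 3 other filters, normexp with an offset of 16, a replicate block, an intensity trend with robust estimation, only the F12 and NS arrays, a 1.5-fold limit, probes instead of genes, unadjusted p-values, repeated quantile normalization and each array left out.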

Additional observations from a re-analysis of the deposited data

How the results depend on the processing

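The counts of 45 higher and 72 lower genes became 68 and 93 without a filter on dim probes, 103 and 141 with only the F12 and NS arrays fitted, 15 and 42 with a 1.5-fold limit and 1021 and 927 at an unadjusted p under 0.05. With each of the 6 arrays left out in turn they ran from 0 to 103 higher and from 0 to 141 lower genes. The lowest counts came from leaving out NS replicate 2 or F12 replicate 1 and the highest from leaving out either array of the second SHMT1 shRNA. The filters on all 6 arrays and on the 4 compared arrays, normexp, the intensity trend with robust estimation, repeated quantile normalization and counting probes kept both counts within 1.5 times. With normexp, 31 of the higher and 54 of the lower genes were shared, and 23 log2 fold changes grew over 1.5 times, up to 2.37 times for CYP24A1.

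Replicate numbers did not pair the F12 and NS arrays, whose same-numbered deviations correlated at -0.292, while those of the second SHMT1 shRNA correlated at 0.457 with NS and -0.311 with F12. With the replicate number as a block 24 genes were higher and 40 lower, 3 of them interferon-stimulated genes. With the numbers crossed, an alternative chosen after seeing the data, 246 were higher and 279 lower, with 22 interferon-stimulated genes among the lower ones.

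SHMT1 stayed lower in the alternatives run on it, which leave out the crossed numbers, and missed the adjusted threshold in them, with an adjusted p of 0.0524 when only the F12 and NS arrays were fitted. Its unadjusted p was 0.00606. SHMT2, at 0.04 with all arrays, changed sign, to -0.061 without NS replicate 2 and -0.019 without F12 replicate 2, reached 0.14 without NS replicate 1, and did not pass in any. The cause of these shifts was not tested. With 2 arrays a group, a missed threshold does not show that a gene was unchanged.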
